A study of Mus musculus with 16 samples.

Results

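The primitive endoderm genes described here were 10 genes that mark the extraembryonic endoderm arising beside the epiblast in the mouse blastocyst: the transcription factors Gata6, Gata4, Sox17, Sox7, Foxa2 and Hnf4a, the receptor Pdgfra, the endocytic proteins Dab2 and Cubn, and the matrix protein Sparc. They were chosen by name, and every non-control probe whose RefSeq annotation belonged to them was taken. This gave 15 probes of the 55681 on the array, and 10 of its 21168 named genes. Of these probes, 14 passed the filter on dim signals described below, so that each of the 10 genes had at least 1 tested probe among 13925 tested genes. Sparc had 3 probes, Sox17, Foxa2 and Cubn had 2 each, and the other genes had 1.

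Mouse embryonic stem cells (mESCs) of 3 lines in 2 media gave 6 groups, whose RNA was hybridised to 16 one-colour arrays. All lines descended from male wild-type J1 cells of the strain 129S4/SvJae. TKO cells lack the DNA methyltransferases Dnmt1, Dnmt3a and Dnmt3b, and 3B3l cells lack Dnmt3a and Dnmt3b and constitutively express introduced Dnmt3b with Dnmt3l. Cells grew in medium with fetal calf serum and 500 U/ml of the cytokine LIF, or for 2 weeks in 2i, a serum-free medium with 1 µM of the MEK inhibitor PD0325901, 3 µM of the GSK3 inhibitor CHIR99021 and 1000 U/ml LIF. There were 4 arrays of J1-serum and 3 of J1-2i, 2 of TKO-serum and 3 of TKO-2i, and 2 of each 3B3l group. By the description of the cultures, inactivated SNLP feeder cells carried J1 in serum, whereas TKO and 3B3l grew on gelatin without feeders, and for J1 in 2i no feeders are named. Nothing in the labels says that arrays of a group came from separate cultures, so p-values measure the spread between these samples, which may be technical.

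In the blastocyst, FGF signalling through MEK and ERK turns cells of the inner cell mass away from the epiblast, marked by Nanog, and towards primitive endoderm, marked first by Gata6. Pdgfra, Sox17, Gata4 and Sox7 follow in sequence, and the mature cells take up maternal proteins through the receptor Cubn and secrete a basement membrane that contains Sparc. Serum cultures of mESCs are known to hold a few cells that express such genes, and inhibition of MEK is known to suppress them.

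Each value below is the log2 of a probe's fluorescence intensity relative to the 75th percentile of its array, so that 0 is the level of a bright probe and 1 unit is a factor of 2. Probes differ in brightness, so levels were compared between arrays and not between genes. A probe was well above background by the flag of the scanner software, and a gene counted as called when a tested probe changed 2-fold or more with an adjusted p no higher than 0.05. Per array, 39.7% to 49.0% of spots were well above background, and the 75th percentile was 1019 to 1797 units of intensity. Dnmt1, the maintenance methyltransferase deleted in TKO, lay between -1.70 and -1.42 on the 5 TKO arrays and between 1.61 and 2.45 on the J1 and 3B3l arrays. The 10 naive epiblast genes examined, Nanog and Pou5f1 among them, were well above background on all 16 arrays.

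The lines differ in DNA methylation, so the promoters of members with different patterns are shown with every CpG in capitals. RefSeq windows of assembly GRCm38.p6, from 250 bases before to 50 after a transcription start, were at hand for 6 of the 10 genes and 10 starts. The 250 bases before the start are printed 5′ to 3′ for Cubn, which had the largest fitted difference of the 10 in J1, for Pdgfra and the CpG-rich start of Foxa2, 2 genes seen above background in J1-serum alone, and for Hnf4a and Sparc, which kept a signal in most groups.
Cubn, chr2:13491877-13492126, minus strand: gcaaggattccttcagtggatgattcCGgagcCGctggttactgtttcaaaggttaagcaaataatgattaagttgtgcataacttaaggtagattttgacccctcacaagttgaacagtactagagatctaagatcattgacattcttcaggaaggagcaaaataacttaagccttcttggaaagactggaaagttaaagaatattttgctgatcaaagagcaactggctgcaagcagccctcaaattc
Pdgfra, chr5:75152001-75152250, plus strand: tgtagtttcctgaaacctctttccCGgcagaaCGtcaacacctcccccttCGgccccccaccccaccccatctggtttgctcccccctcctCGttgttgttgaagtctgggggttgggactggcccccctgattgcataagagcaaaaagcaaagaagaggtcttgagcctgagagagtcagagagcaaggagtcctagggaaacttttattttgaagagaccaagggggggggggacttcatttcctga
Foxa2, chr2:148045949-148046198, minus strand: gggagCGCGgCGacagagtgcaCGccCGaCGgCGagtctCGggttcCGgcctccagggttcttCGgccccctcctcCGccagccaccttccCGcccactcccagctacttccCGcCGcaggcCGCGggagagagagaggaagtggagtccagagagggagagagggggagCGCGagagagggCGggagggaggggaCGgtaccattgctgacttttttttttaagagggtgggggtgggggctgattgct
Hnf4a, chr2:163506607-163506856, plus strand: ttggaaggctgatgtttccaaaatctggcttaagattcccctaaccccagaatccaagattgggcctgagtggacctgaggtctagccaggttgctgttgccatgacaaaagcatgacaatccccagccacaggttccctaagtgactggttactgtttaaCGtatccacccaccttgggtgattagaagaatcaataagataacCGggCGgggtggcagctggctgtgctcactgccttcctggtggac
Sparc, chr11:55420081-55420330, minus strand: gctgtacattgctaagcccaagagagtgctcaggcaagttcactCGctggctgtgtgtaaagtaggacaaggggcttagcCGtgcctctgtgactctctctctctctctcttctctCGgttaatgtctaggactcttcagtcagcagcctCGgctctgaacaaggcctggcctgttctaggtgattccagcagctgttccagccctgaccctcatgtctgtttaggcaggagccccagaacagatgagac

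The whole windows of 300 bases held 5 CpGs in Cubn, 5 in Pdgfra, 4 in Sparc and 4 at each of the 2 starts of Hnf4a. The 3 starts of Foxa2 held 12, 23 and 13, and the 2 starts of Dab2 held 2 and 19. The median over all 32851 windows was 7, 68.6% of them held at least 4 CpGs and 21.5% held at least 23. Members that became undetectable in 2i thus had windows on both sides of that median. The GATA motif, read as AGATAA or else AGATAG or else TGATAA or else TGATAG and searched on both strands with overlapping matches allowed, occurred in 3 of the 10 member windows, at 1 start each of Foxa2, Hnf4a and Dab2, against 29.8% of all windows. The SOX motif AACAAT, on both strands, occurred in none of the 10 and in 10.7% of all windows. These matches describe the windows and say nothing of binding.

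In J1-serum, 9 of the 10 genes were well above background on all 4 arrays with a spread of 0.08 to 0.26 (SD, n = 4), and the tenth, Sparc, was saturated on its brightest probe. Per array, 6 to 8 of the 10 genes were well above background in TKO-serum, 4 to 5 in 3B3l-serum and 2 to 3 in the groups in 2i. The plot of levels by array shows this for each gene.

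**Figure D1:**
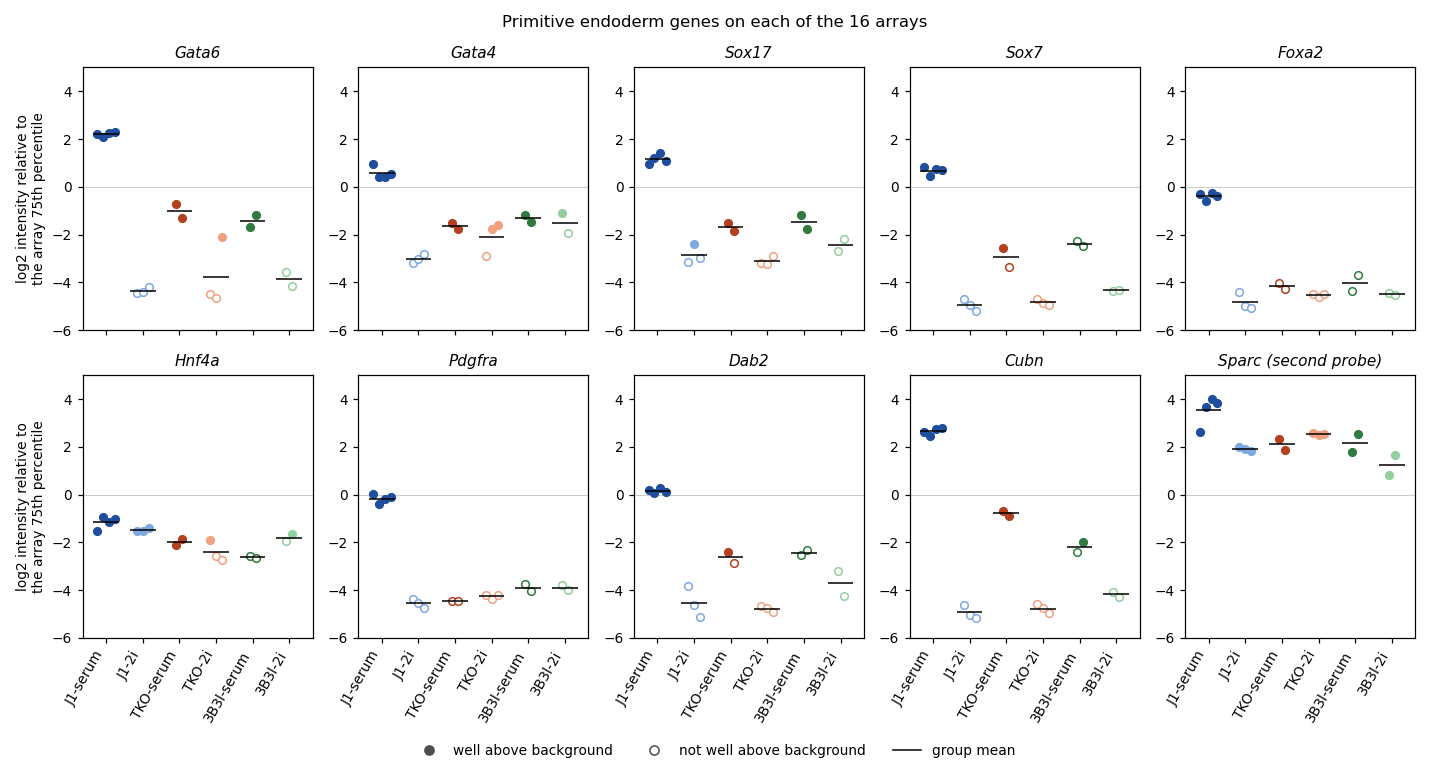
Level of each primitive endoderm gene on each array (log2 intensity relative to the array's 75th percentile), by line and medium. Filled points were well above background, open points were not, and black lines are group means. The J1-serum mean is the highest in every panel, and Pdgfra and Foxa2 have filled points in J1-serum alone.

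Gata6 encodes the GATA factor that specifies primitive endoderm. On the 4 J1-serum arrays its level was 2.22, 2.10, 2.24 and 2.28. It was -4.46, -4.38 and -4.20 in J1-2i, -0.72 and -1.30 in TKO-serum, -4.48, -4.67 and -2.11 in TKO-2i, -1.68 and -1.18 in 3B3l-serum, and -3.55 and -4.16 in 3B3l-2i. Every serum array was well above background, and of the 8 arrays in 2i only TKO-2i replicate 3 was. Within each line the serum and 2i arrays did not overlap. Gata6 fell by 6.55 ± 0.47 (SE) on the log2 scale in J1 (limma, adjusted p = 1.47e-07), which is at least 29.7-fold when the dim group is set to the lowest signal well above background on each array. The same convention gives every "at least" below. It fell by 2.75 ± 0.56 in TKO (adjusted p = 0.00218), where 1 of 3 2i arrays measured it, and without that array by 3.57. With normexp background correction the difference in TKO was -1.55. In 3B3l Gata6 was at least 1.86-fold lower in 2i (difference -2.43 ± 0.62, adjusted p = 0.0112, and -1.25 with normexp background correction). That call was lost without 3B3l-serum replicate 2 (adjusted p = 0.0742) or 3B3l-2i replicate 2 (adjusted p = 0.0843).

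Gata4, the GATA factor of the next step, was at 0.97, 0.42, 0.43 and 0.54 in J1-serum and at -3.20, -3.01 and -2.81 in J1-2i, where no array was well above background. In TKO it was at -1.49 and -1.75 in serum and at -2.91, -1.76 and -1.61 in 2i, and in 3B3l at -1.16 and -1.48 in serum and -1.10 and -1.94 in 2i. Serum and 2i arrays thus overlapped in TKO and in 3B3l but were far apart in J1. The fall in J1 was at least 9.40-fold (difference -3.59 ± 0.29, adjusted p = 4.67e-07). The differences in TKO, -0.47 ± 0.35 (adjusted p = 0.338), and in 3B3l, -0.20 ± 0.38 (adjusted p = 0.816), did not pass the test. Of the 8 genes that fell in J1 on their leading probe, Gata4 kept the most arrays above background in 2i, 2 of 3 in TKO and 1 of 2 in 3B3l.

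Sox17 and Sox7 are F-group SOX factors of the endoderm. The brighter probe of Sox17 read 0.95, 1.20, 1.42 and 1.10 in J1-serum, -3.16, -2.39 and -2.96 in J1-2i, -1.49 and -1.85 in TKO-serum, -3.17, -3.23 and -2.91 in TKO-2i, -1.18 and -1.76 in 3B3l-serum and -2.68 and -2.19 in 3B3l-2i. The 8 serum arrays were all above the 8 arrays in 2i. The difference was -4.01 ± 0.21 in J1 (adjusted p = 7.95e-09), with 1 of 3 2i arrays above background, at least 1.83-fold lower in TKO (adjusted p = 0.000666, with normexp background correction a difference of -0.88, under the limit), and -0.96 ± 0.27 in 3B3l (adjusted p = 0.0208), under the 2-fold limit. The second Sox17 probe gave -4.91 ± 0.14 in J1 and -2.32 ± 0.17 in TKO. In 3B3l it gave -1.27 ± 0.19 and carried the call of the gene there, although neither 3B3l group was above background on it, and without 3B3l-serum replicate 1 no Sox17 probe reached the 2-fold limit. Sox7 read 0.84, 0.47, 0.73 and 0.70 in J1-serum and -4.69, -4.93 and -5.19 in J1-2i. In TKO-serum it read -2.55, above background, and -3.34, not above it, and both 3B3l-serum arrays, at -2.28 and -2.49, were not above it either. Sox7 fell at least 10.3-fold in J1 (difference -5.63 ± 0.18, adjusted p = 1.13e-10). It was called lower in TKO and 3B3l as well (adjusted p = 1.48e-05 and 3.76e-05), but from such dim serum values that no fold can be given.

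Foxa2, a forkhead factor of endoderm, was at -0.31, -0.58, -0.27 and -0.40 in J1-serum. Its other 12 arrays lay between -5.08 and -3.71, none of them well above background. The fall in J1-2i was at least 4.90-fold (difference -4.43 ± 0.18, adjusted p = 8.10e-10), and both media were below background in TKO and in 3B3l, so a response could not be measured there. The second Foxa2 probe was above background on 2 of the 4 J1-serum arrays and on no other, and was not tested. Hnf4a, a nuclear receptor of visceral endoderm, was at -1.51, -0.95, -1.15 and -1.01 in J1-serum and at -1.54, -1.51 and -1.42 in J1-2i, and all 7 arrays were above background. The difference in J1, -0.34 ± 0.19, did not pass the test (adjusted p = 0.169). In TKO it was at -2.12 and -1.87 in serum and -1.90, -2.58 and -2.75 in 2i (adjusted p = 0.194), and in 3B3l at -2.58 and -2.64 in serum and -1.96 and -1.67 in 2i. The rise of 0.79 ± 0.25 in 3B3l (adjusted p = 0.0333) was under the 2-fold limit.

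Pdgfra, the receptor for platelet-derived growth factor A, has 10 copies of its probe on each array. Their mean was 0.02, -0.39, -0.17 and -0.11 in J1-serum. All 12 other arrays, in serum and in 2i, lay between -4.75 and -3.76, and none was well above background. Pdgfra fell at least 5.72-fold in J1-2i (difference -4.39 ± 0.12, adjusted p = 5.06e-11). In TKO (0.20 ± 0.15, adjusted p = 0.341) and 3B3l (-0.012 ± 0.16, adjusted p = 0.979) both media were below background, so a response could not be measured there.

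Dab2, an adaptor for endocytosis that works with Cubn, was at 0.17, 0.07, 0.26 and 0.12 in J1-serum and at -3.84, -4.63 and -5.14 in J1-2i. It was at -2.38 and -2.85 in TKO-serum, the first of these above background, and at -2.55 and -2.33 in 3B3l-serum, neither above it. The fall in J1 was at least 7.15-fold (difference -4.70 ± 0.28, adjusted p = 2.59e-08). The calls in TKO (adjusted p = 0.000271) and 3B3l (adjusted p = 0.0230) again rested on serum values at the edge of detection. That in 3B3l was lost without 3B3l-serum replicate 1, 3B3l-serum replicate 2 or 3B3l-2i replicate 2 (adjusted p = 0.0659, 0.110 and 0.234). Cubn, the receptor that takes up vitamin B12 carriers and maternal proteins, showed the widest range of the 10 genes. It was at 2.61, 2.44, 2.76 and 2.77 in J1-serum and at -4.61, -5.03 and -5.16 in J1-2i, a fall of at least 40.1-fold (difference -7.58 ± 0.16, adjusted p = 6.58e-12). It was at -0.67 and -0.89 in TKO-serum and at -2.38 and -1.98 in 3B3l-serum, with 1 of these 2 above background, and all 5 arrays of TKO-2i and 3B3l-2i were between -4.97 and -4.07. Cubn was at least 3.37-fold lower in 2i in TKO (adjusted p = 9.69e-09) and at least 1.1-fold lower in 3B3l (difference -1.99 ± 0.21, adjusted p = 1.25e-05). The second Cubn probe was called lower in all 3 lines. In 3B3l its difference was -1.05 ± 0.35 (adjusted p = 0.0431), with 1 of 2 serum arrays and no 2i array above background.

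Sparc, a secreted glycoprotein of the parietal endoderm matrix that fibroblasts also make, was bright everywhere. Its brightest probe was saturated on all 4 J1-serum arrays, at 5.14 to 5.79, and lay between 4.72 and 5.57 on the other 12, so that the size of a difference from J1-serum is only a bound. The second probe, which was not saturated, read 2.60, 3.65, 4.0 and 3.84 in J1-serum, 1.97, 1.93 and 1.84 in J1-2i, 2.34 and 1.86 in TKO-serum, 2.56, 2.47 and 2.55 in TKO-2i, 1.78 and 2.53 in 3B3l-serum and 0.83 and 1.67 in 3B3l-2i. J1-serum was highest, and its first array, which was scanned with the 3B3l arrays on another slide, was nearest to the other groups. On this probe Sparc was 3.05-fold lower in J1-2i than in J1-serum (difference -1.61 ± 0.31, adjusted p = 0.000866), and -1.91 on the log2 scale without that array. It did not pass the test in TKO (0.42 ± 0.37, adjusted p = 0.423) or 3B3l (-0.90 ± 0.41, adjusted p = 0.139). The brightest probe, not saturated in those lines, differed by 0.21 ± 0.17 in TKO (adjusted p = 0.375) and was lower in 3B3l-2i by a difference of -0.73 ± 0.18 (adjusted p = 0.0102), under the limit. The remaining Sparc probe was near background in every group.

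Pdgfra, Foxa2, Sox7 and Dab2 passed the filter on dim signals through J1-serum alone, the group in which they were high, so the counts against J1-serum are given as a description. Counted over the genes, 9 of 10 were called lower and none higher in J1-2i than in J1-serum, where 13.8% of all tested genes were called lower, and the median difference was -4.41 against 0.052 for all tested genes. In TKO 5 of 10 were called lower, with 10.2% of all genes, and a median of -0.95 against 0.069. In 3B3l 5 of 10 were called lower (3 to 5 with any 1 array of the line left out), with 8.62% of all genes, and a median of -0.85 against 0.0027. Gata6, Sox17, Sox7, Dab2 and Cubn were the 5 in both lines, and in TKO 2 and in 3B3l 3 of these calls had no side that gives a fold. Within slide 1 alone, 9 of the 10 genes were called in J1, with 25.6% of all genes called in either direction, and 4 in TKO, with 17.7%, where Gata6 did not pass (adjusted p = 0.0557).

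**Figure D2:**
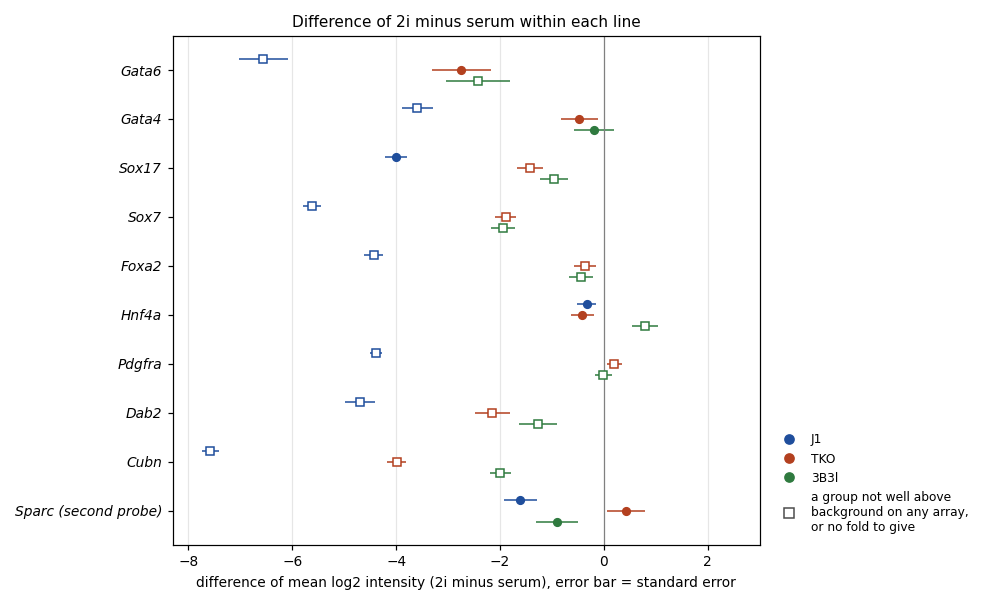
Difference of 2i minus serum in mean log2 intensity for each gene and line, with its standard error. Open squares mark differences in which a group was not well above background on any array, or for which no fold can be given. The J1 differences of 8 genes lie between -7.58 and -3.59, and those of TKO and 3B3l lie nearer to 0.

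The question of how the lines differed was asked in each medium. In serum, 9 of the 10 genes were called lower in TKO than in J1, with 9.84% of all genes, and all 10 were called lower in 3B3l than in J1, with 11.2% of all genes. Both counts include the 4 genes that were tested through J1-serum alone. In TKO-serum Cubn was 10.8-fold lower than in J1-serum, Gata6 9.31-fold, Sox17 7.15-fold, Dab2 6.84-fold (1 of 2 arrays) and Gata4 4.63-fold, while Pdgfra was at least 6.21-fold and Foxa2 at least 5.32-fold lower. Sox7 was called lower as well, but its TKO-serum mean lay under the lowest signal counted as well above background, so its fold is not given. Their adjusted p ran from 1.87e-09 for Pdgfra to 0.000379 for Gata6. The second Sparc probe was 2.67-fold lower (adjusted p = 0.00632), a call lost without TKO-serum replicate 2 (adjusted p = 0.0728), and Hnf4a was 1.79-fold lower (adjusted p = 0.00723), under the limit. In 3B3l-serum Cubn was 28.4-fold lower than in J1-serum (1 of 2 arrays above background), Gata6 12.5-fold, Sox17 6.23-fold and Gata4 3.76-fold, and Hnf4a was at least 2.14-fold lower (adjusted p = 0.000119). J1-serum replicate 1 shared slide 3 with the 3B3l arrays, and against that array alone, whose spread is taken from the other groups on the slide, 9 of 10 genes were called, with 19.4% of all genes called in either direction. The exception was Sparc, whose second probe differed by -1.37 ± 0.35 (adjusted p = 0.00675) over all arrays and by -0.45 within slide 3 (adjusted p = 0.548), and did not pass without 3B3l-serum replicate 1 (adjusted p = 0.108).

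All 3B3l arrays were on slide 3, scanned on day 2. All TKO and J1-2i arrays were on slides 1 and 2, scanned on day 1. Line and slide therefore cannot be told apart between 3B3l and TKO in either medium, nor between 3B3l-2i and J1-2i. Between the lines without feeders, 3B3l-serum and TKO-serum, 1 gene of 10 was called lower, with 6.62% of all genes, and none higher, with 5.96%. This was Cubn, 2.64-fold lower in 3B3l (adjusted p = 0.000360, 1 of 2 3B3l arrays above background), and under the limit with normexp background correction (-0.95). The differences of Gata6, -0.42 ± 0.62, of Gata4, 0.30 ± 0.38, and of Sox17, 0.20 ± 0.27, did not pass (adjusted p = 0.593 to 0.645). The second Sox17 probe differed the other way, by -0.71 ± 0.19 (adjusted p = 0.0141), under the 2-fold limit, and was called without 3B3l-serum replicate 1 (adjusted p = 0.00366). The order of levels was therefore J1-serum first for all 8 genes that fell in J1 on their leading probe, followed by TKO-serum and 3B3l-serum in either order for Gata6, Sox17, Sox7, Dab2 and Cubn, where Cubn alone was called between these 2 groups. Slide as a block ties slide 3 to the others through J1-serum replicate 1 alone. It moved 3B3l-serum minus TKO-serum from 0.35 to 0.94 on the brightest Sparc probe and from 0.048 to 1.30 on the second.

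In 2i most differences between lines could not be measured. Pdgfra, Sox7, Dab2, Foxa2 and Cubn were below background in all 3 groups, and Gata6 and Sox17 gave no fold in any of the comparisons. No member was called between TKO-2i and J1-2i by limma, with 8.51% of all genes, and 4 of 10 had an unadjusted p under 0.05, with 42.3% of all genes. Gata4 was higher by 0.91 ± 0.31 (adjusted p = 0.0543) and Hnf4a lower by a difference of -0.92 ± 0.20 (adjusted p = 0.00572), and both were called without TKO-2i replicate 1. Compared with J1-2i, 3B3l-2i had 1 gene called, Gata4, at least 2.18-fold higher (adjusted p = 0.00539), and 9.11% of all genes were called higher. That value rests on 1 of 2 3B3l arrays above background, and it was lost without 3B3l-2i replicate 1 (adjusted p = 0.0777) and with slide as a block (adjusted p = 0.206). Dab2 and Cubn were called higher in 3B3l-2i than in TKO-2i, with 5.46% of all genes, but both groups were below background on the probes called. The call of Dab2 was lost without TKO-2i replicate 2, TKO-2i replicate 3 or 3B3l-2i replicate 1 (adjusted p = 0.0679, 0.0799 and 0.331), and that of Cubn without 3B3l-2i replicate 2 (adjusted p = 0.0594). Sparc was called lower, with 6.42% of all genes, and was 2.43-fold lower in 3B3l-2i on its second probe (adjusted p = 0.0216), and -0.051 on the log2 scale with slide as a block (adjusted p = 0.959). It was also lost without TKO-2i replicate 3 (adjusted p = 0.0502) or 3B3l-2i replicate 1 (adjusted p = 0.207).

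The differences between the responses were tested as interaction terms. For 9 genes of 10 the response of TKO minus that of J1 was called positive, with 8.85% of all genes. Of these 9, Pdgfra and Foxa2 were below background in both media in TKO, and the responses of Gata4 and of the second Sparc probe did not pass the test there. For 9 genes it was called positive in 3B3l minus J1, with 10.1% of all genes. Of these 9, Pdgfra, Foxa2, Sox7 and Dab2 were below background in both media in 3B3l, and the responses of Gata4 (adjusted p = 0.816) and Hnf4a (under the 2-fold limit) were not called there. These comparisons share the J1 arrays. Both counts include Pdgfra, Foxa2, Sox7 and Dab2, which were tested through J1-serum alone, and a high level there makes such a term positive. The counts are therefore given as a description. In TKO the terms ran from 2.03 ± 0.49 for the second Sparc probe to 4.58 ± 0.19 for Pdgfra, and Hnf4a gave -0.080 ± 0.29 (adjusted p = 0.875). In 3B3l they ran from 1.13 ± 0.31 for Hnf4a (adjusted p = 0.0171) to 5.58 ± 0.26 for Cubn (adjusted p = 2.95e-08). The Hnf4a term was lost without 3B3l-serum replicate 2 or 3B3l-2i replicate 2 (adjusted p = 0.0557 and 0.0738), with normexp background correction (0.73, adjusted p = 0.0599) and under the replicate block (adjusted p = 0.0544). Since J1-2i was at or below background for 8 of these genes, the terms are fitted values. For every called term against J1, the lines differed more in serum than in 2i. For Pdgfra, TKO minus J1 was -4.29 in serum and 0.29 in 2i. For Gata4, 3B3l minus J1 was -1.91 in serum and 1.48 in 2i. The responses of 3B3l and TKO differed in 3 genes, with 5.56% of all genes called higher: Cubn by 2.00 ± 0.28 (adjusted p = 0.000407, but 0.66 and adjusted p = 0.195 with normexp background correction), Hnf4a by 1.21 ± 0.34 (adjusted p = 0.0311) and the second Sox17 probe by 1.05 ± 0.25 (adjusted p = 0.0155), a fitted value only, since neither 3B3l group was above background on it. This Hnf4a term lost its call without TKO-serum replicate 2, TKO-2i replicate 2 or 3, 3B3l-serum replicate 1 or 2, or 3B3l-2i replicate 2, with adjusted p between 0.0601 and 0.105, and with normexp background correction (0.73, adjusted p = 0.126), no filter on dim probes (adjusted p = 0.0629) or the replicate block (adjusted p = 0.0828). The Sox17 call was lost without TKO-2i replicate 2, 3B3l-serum replicate 2 or 3B3l-2i replicate 1 (adjusted p of 0.0386, with the term under the limit, 0.0615 and 0.0557).

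Feeder cells are fibroblasts and are described for J1-serum alone, so markers of fibroblasts were read beside these genes. In this list and those below, genes counted as higher or lower are those called. Of 20 such genes 14 had a tested probe. Their summed level, in multiples of the 75th percentile, was 76.4 to 91.4 on the J1-serum arrays, 18.8 to 21.0 in J1-2i, 24.3 to 26.6 in TKO-serum, 25.2 to 28.3 in TKO-2i, 70.5 to 70.8 in 3B3l-serum and 24.0 to 25.0 in 3B3l-2i. Their mean log2 level was 1.62 to 1.81 in J1-serum, -1.99 to -1.85 in J1-2i, -0.44 to -0.24 in TKO-serum and 0.42 to 0.55 in 3B3l-serum. In J1-2i 12 of the 14 were lower than in J1-serum and none higher, with a median difference of -4.25, near that of the primitive endoderm genes, and 12 of 14 were lower in TKO-serum than in J1-serum. Col1a1, a chain of type I collagen, was at 2.49 in J1-serum and -4.09 in J1-2i, and 2.90 higher in 3B3l-serum than in TKO-serum. Tagln and Acta2, of the actin cytoskeleton, were called lower in 2i in all 3 lines, with differences of -5.21 and -6.56 in J1, whereas Vim, an intermediate filament gene, differed by -0.42 in J1 and rose by 1.10 in TKO. Pdgfrb, a receptor of mesenchymal cells, was called lower in J1 (-1.34) and higher in 3B3l (1.81). Dcn, a proteoglycan of fibroblasts, was above background on all 4 J1-serum arrays, 1 J1-2i array and no other, while Lum, Prrx1 and Col5a2 were not above it on any of the 16. In serum, 9 of the 14 were called higher in 3B3l than in TKO and 1 lower, with a median of 1.15, and no primitive endoderm gene was called higher. Against J1-serum, 8 of the 14 were lower in 3B3l-serum and none higher, and Col1a1 was not called (-0.63, adjusted p = 0.224). The part of feeders in the J1-serum levels was not tested. Feeders and medium cannot be told apart in the J1 comparison of 2i with serum, nor line and feeders in serum comparisons with J1 and in the differences of responses that include J1. In bulk RNA, fewer cells of a type and less RNA per cell cannot be told apart either.

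**Figure D3:**
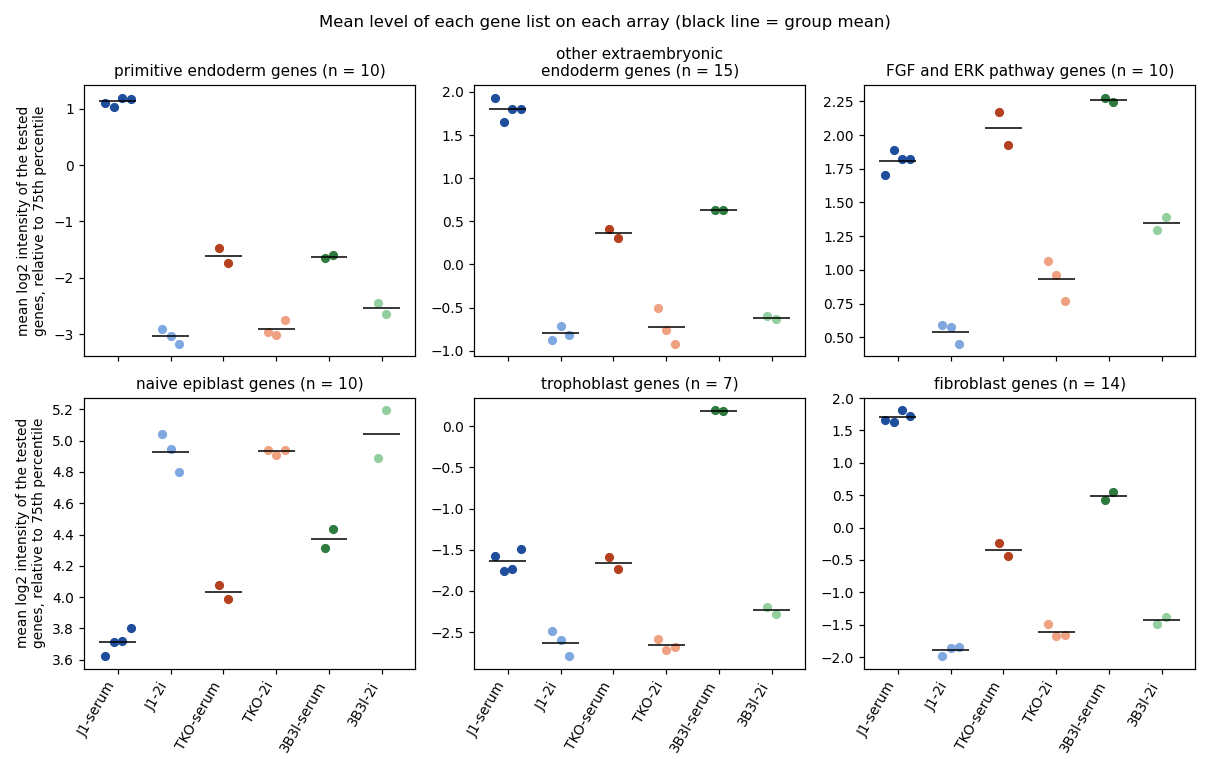
Mean log2 level of the tested genes of each list on each array, by group, with group means as black lines. The vertical axes differ between panels. The primitive endoderm genes are at 1.03 to 1.20 in J1-serum and between -1.74 and -1.48 in TKO-serum and 3B3l-serum, and the fibroblast genes at 0.42 to 0.55 in 3B3l-serum.

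Other genes of the extraembryonic endoderm were read from a list of 20, of which 15 were tested. In J1-2i 11 were lower and 2 higher than in J1-serum, with a median of -2.18, where 11.5% of all genes were called higher. In TKO 8 were lower and 2 higher, with a median of -1.14 and 7.5% of all genes higher. In 3B3l 8 were lower and none higher, with a median of -1.03 and 6.25% of all genes higher. Col4a1, a chain of basement membrane collagen, changed most in J1, from 4.04 in serum to -3.10 in 2i, where no array was above background. Its differences in TKO and 3B3l were -3.01 and -3.52. Lrp2, the endocytic partner of Cubn, fell in all 3 lines, with differences of -2.37 (J1), -4.05 (TKO) and -4.07 (3B3l). In serum Lrp2 was 1.5 higher in 3B3l than in J1 (adjusted p = 0.00192) and differed by 0.96 in TKO (adjusted p = 0.0303, under the limit), while Cubn was lower in both. Lama1, a laminin chain, fell in J1 by a difference of -1.78 (adjusted p = 2.65e-07) and was not called in TKO or 3B3l. Lamc1, another laminin chain, was called in none of the 3 lines. Apoe, an apolipoprotein, differed by 0.070 in J1 and rose by 1.09 in TKO. Fst, an activin antagonist, rose by 1.04 in J1 and 1.24 in TKO and fell by 1.05 on the log2 scale in 3B3l. The visceral endoderm products Afp and Apoa1 were not above background on any array, and Ttr and Apob were above it on 1 array each. Apoe and Rbp4, also on this list, were above it on all 16 arrays, and Amn on 11.

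The signalling pathway that MEK inhibition blocks was read from 10 FGF and ERK genes, all tested. In 2i, 5 of these were called lower in J1, while TKO had 5 such calls and 3B3l had 3. None was called higher in any line. Spry4, a feedback inhibitor of ERK signalling, fell in each line, with differences of -4.53 (J1), -3.41 (TKO) and -1.31 (3B3l). Egr1, an immediate early gene of ERK, differed by -2.89, -4.65 and -5.79 in the same order. Etv4, an ETS factor, was called lower in J1 (-1.27) and differed by 0.50 and 0.53, both under the limit, in TKO and 3B3l, while the ligand Fgf4 and the ETS factor Etv5 were called in no line. In serum none of the 10 was called lower in TKO or 3B3l than in J1. There, 1 was called higher in TKO, with 9.2% of all genes, and 2 in 3B3l, with 11.5% of all genes. Of the 10 naive epiblast genes, 6 were higher in J1-2i than in J1-serum, 3 in TKO and 4 in 3B3l, and none lower. Prdm14, a regulator of naive pluripotency, rose by 2.79, 1.57 and 1.25, and Tfcp2l1 by 2.56, 2.78 and 2.24 (J1, TKO and 3B3l in turn), while Nanog differed by 0.27, 0.24 and -0.0054 on its leading probe, which was saturated on 7 arrays. Nanog was 1 of the 6 in J1 through its other probe, never saturated, which rose by 1.40 (adjusted p = 4.82e-06). Pou5f1 and Zfp42, also partly saturated, were called in no line.

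Other early lineages were read in the same way. Of 8 mesendoderm genes 5 were tested, of which 2 were called higher and 1 lower in 2i in J1, 3 and 1 in TKO, and 4 and 0 in 3B3l. Gsc, a homeobox gene of the organizer, and Eomes, a T-box factor, rose in 2i in J1 (3.30 and 2.22). Eomes also rose in TKO and 3B3l and Gsc in TKO. Foxa1, a relative of Foxa2, was above background on the 4 J1-serum and 2 TKO-serum arrays and no other, and differed by -1.29 in J1 and -2.64 in TKO. Of the 4 called higher in 3B3l, Foxa1 (1.29) and Gsc were below background in both 3B3l groups. T, a T-box factor of the primitive streak, was called higher in TKO (2.48) and 3B3l (2.09) and below background in both J1 groups, and Hhex, a homeobox factor, was called in none of the 3 lines. Only 1 TKO-2i array and 2 3B3l-2i arrays had T above background, and it was tested through 3B3l-2i alone. Mixl1, Cer1 and Cxcr4 were not above background on any array. Of 8 trophoblast genes 7 were tested. In 2i 4 were lower and 1 higher in J1, 4 lower and 1 higher in TKO, and 5 lower and none higher in 3B3l, with medians of -1.38, -1.74 and -2.74. Of the 4 in J1, Gata3 was above background on no J1 array and Cdx2 and Plac1 on 1 J1-serum array each. Ascl2 and Plac1, 2 genes of the placenta, were lower in all 3 lines, and Tfap2c, an AP-2 factor, rose in J1 by 1.38 and was called in neither TKO nor 3B3l. In serum 6 were higher in 3B3l than in J1 and none lower, with 11.5% of all genes higher, whereas all 10 primitive endoderm genes were lower in the same comparison. Krt7, a keratin of simple epithelia, was 1.67 higher there, and Cdx2, a trophectoderm factor, 2.25 higher. Of the 7 trophoblast genes, Hand1 was tested through 3B3l-serum alone. Of the 10 primitive endoderm genes, Pdgfra, Foxa2, Sox7 and Dab2 were tested through J1-serum alone, and Sparc was called on its second probe only.

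Pearson's r over the 16 arrays was used to describe which genes had the pattern most like each member, among 13635 genes with a value on every array. The arrays share their groups, so r mostly reflects the 6 group means. Sox7 was the gene most like Sox17 (r = 0.98) and most like Dab2 (r = 0.99), and Pdgfra was among the 3 nearest to Foxa2 (r = 0.99). Cubn was followed by Ankrd1, Tap1 and Hdc (r = 0.99 each), Sox7 by Rgl3, Ptgs2 and Scx (r = 0.99 each), and Pdgfra by Habp2, Ugt2b34 and Vcam1 (r = 1.00 each). Gata6 was nearest to Kctd11, S100a4 and Ankrd1 (r = 0.97 each) and Gata4 to Gem (r = 0.98), Sh2d5 and Nrn1 (r = 0.96 each). Among the members, Gata6, Gata4, Sox17, Sox7, Foxa2, Pdgfra, Dab2 and Cubn had r between 0.88 and 0.99 with each other. Their ranks for each other among the 13635 genes ran from 1, Sox7 for Sox17, to 373, Pdgfra for Cubn, so genes outside the members were often nearer. Pdgfra, Foxa2, Sox7 and Dab2 were tested through J1-serum alone, and most of their other values were below background. Hnf4a had r between 0.03 and 0.62 with the other members and Sparc between 0.03 and 0.60, on a probe that was saturated, and so compressed, in J1-serum. Hnf4a was nearest to Apobec1 (r = 0.92), Sp3os (r = 0.91) and Neil3 (r = 0.91), and Sparc to Cdkn2b (r = 0.92), Blnk (r = 0.89) and Il12rb1 (r = 0.86).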

How the data were processed

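RNA of 16 mESC samples was hybridised to Agilent 8x60K arrays, 1 array per sample. Per the file headers, the deposited scanner files hold an intensity per spot, processed by Agilent Feature Extraction (version 11.5.1.1, per the submitters' processing notes) with background subtraction and no normalization between arrays. A further deposited file lists the authors' normalized log2 values of 30170 probes, with centring unstated. There 13 of 16 columns matched another replicate of the same group best, and it was used only among the alternatives.

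Levels were log2 intensity minus the array's 75th percentile over non-control spots. Spots flagged as outliers or non-uniform were left out and the spots of a probe averaged. A probe was well above background where at least 50% of its spots were, and was tested where this held on every array of at least 1 group (27126 probes). A single model of 6 group means over 16 arrays was fitted with limma (version 3.58.1, R 4.3.3) and eBayes, with Benjamini-Hochberg adjustment over all tested probes and two-sided tests. A gene was called where any tested probe had an adjusted p of at most 0.05 and at least a 2-fold change. Each gene is led by its probe of highest mean. Signal over background and the number of arrays limit the precision.

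Gene names came from RefSeq identifiers matched to GRCm38.p6. The identifiers differ between the grids of the 2 scan days, so all arrays were pooled, and 6 probes with conflicting genes were left unnamed. The members and lists were chosen with earlier results of these data known. Named were all members, from each list the 3 genes of highest mean and the largest rise and fall in each 2i response, and for each member the 3 genes of highest Pearson's r. Of these, 1 gene is not reported here. The background genes Afp, Apoa1, Mixl1, Cer1, Cxcr4, Lum, Prrx1, Col5a2 and Dcn were named after their values were seen. The same holds for Ttr, Apob, Rbp4, Amn and Hand1.

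Alternatives were median and quantile scaling, normexp background correction (offset 50, on the median signal because the mean signal is not in the columns used here), no filter on dim probes, a filter on all arrays, no fold limit, the leading probe alone, slide or replicate number as a block, and each array left out. Values within slide 1 and within slide 3 were added after seeing the data. The fit was tested on simulated data with known changes.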

Additional observations from a re-analysis of the deposited data

Results flagged for a closer look

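The fitted 2i responses of primitive endoderm genes differed between lines by an interaction term of the limma model, in log2 units of the response in 1 line minus that in another. Pdgfra and Foxa2 were below background in both media in TKO and 3B3l, and Sox7, Dab2 and the second Sox17 probe in 3B3l, so their terms for these lines are fitted values against groups in which no response could be measured. Pdgfra, Foxa2, Sox7 and Dab2 were also tested through J1-serum alone, and a high level there makes a term against J1 positive. For TKO minus J1 the terms were 4.58 for Pdgfra, 4.07 for Foxa2, 3.81 for Gata6, 3.73 for Sox7, 3.59 for Cubn, 3.12 for Gata4, 2.57 for Sox17 (2.59 on its second probe), 2.54 for Dab2 and 2.03 for the second Sparc probe.

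For 3B3l minus J1 they were 5.58 for Cubn (2.83 on its second probe), 4.38 for Pdgfra, 4.13 for Gata6, 3.99 for Foxa2, 3.68 for Sox7, 3.43 for Dab2, 3.39 for Gata4, 3.04 for Sox17 (3.64 on its second probe) and 1.13 for Hnf4a.

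For 3B3l minus TKO they were 2.00 for Cubn (1.65 on its second probe), 1.21 for Hnf4a and 1.05 for the second Sox17 probe. By Dixon's test no J1-serum array was stray for any member probe, and the groups of 2 or 3 arrays were not tested.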

How the results depend on the processing

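Of 1270 values of single genes under the alternatives, 1217 kept their direction and their side of the threshold, 29 lost their call, 8 gained it and 16 changed sign. Counts of called primitive endoderm genes are given in this order of comparison: 2i against serum in J1 (9), TKO (5) and 3B3l (5), TKO-serum and 3B3l-serum against J1-serum (9 and 10), 3B3l-serum against TKO-serum (1), TKO-2i and 3B3l-2i against J1-2i (0 and 1), 3B3l-2i against TKO-2i (3), and the differences of responses TKO minus J1 (9), 3B3l minus J1 (9) and 3B3l minus TKO (3). With probes required to be well above background on all 16 arrays, the counts were 1, 0, 0, 1, 1, 0, 0, 0, 1, 1, 0 and 0, because only Sparc then had a tested probe. Normexp background correction gave 3 in 3B3l, 0 for 3B3l-serum against TKO-serum, 0 for 3B3l-2i against J1-2i, 1 for 3B3l-2i against TKO-2i and 0 for 3B3l minus TKO. Under it 80 of 86 single values kept their side of the threshold and 6 lost their call, and differences of dim genes were smaller. Without a fold limit the counts were 3 for 3B3l-serum against TKO-serum, 2 for TKO-2i and 4 for 3B3l-2i against J1-2i. Median scaling and slide 1 alone each gave 2 for TKO-2i against J1-2i. Median scaling also moved the median of all tested probes from 0.044 to 0.21 in J1 and from -0.017 to 0.11 in 3B3l. Slide as a block gave 0 for 3B3l-2i against J1-2i and 1 for 3B3l-2i against TKO-2i, and the leading probe alone also gave 1 there. Where not stated, the cause was not tested.

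With 1 array left out, counts ranged from 9 to 9 in J1, 5 to 5 in TKO, 3 to 5 in 3B3l, 8 to 9 for TKO-serum and 9 to 10 for 3B3l-serum against J1-serum, 1 to 2 for 3B3l-serum against TKO-serum, 0 to 2 for TKO-2i and 0 to 2 for 3B3l-2i against J1-2i, 1 to 3 for 3B3l-2i against TKO-2i, and 9 to 9, 8 to 9 and 1 to 3 for the differences of responses. A group left with 1 array is assumed to vary like the others.

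Sign changes were all in differences that were not called. Gata4 in 3B3l ranged from -0.62 to 0.22 without 1 array, and in 3B3l-serum against TKO-serum was -0.064 with slide as a block. The saturated Sparc probe in 3B3l-serum against J1-serum became 0.40 with slide as a block and within slide 3, 0.10 with the replicate block, and ranged from -0.16 to 0.061 without 1 array. In 3B3l-serum against TKO-serum the second Sparc probe became -0.047 with quantile scaling and -0.047 in the authors' table, and ranged from -0.33 to 0.42 without 1 array, and Sox17 ranged from -0.094 to 0.49. In 3B3l-2i against J1-2i, slide as a block gave 0.15 for Hnf4a, 0.28 for Sparc and 0.56 for its second probe.

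Samples shared replicate numbers across media, but deviations of same-numbered samples correlated at -0.12, 0.014 and -0.064 in J1, 0.011 and -0.021 in TKO and 0.29 in 3B3l, so the number was not taken as a pairing. With the replicate number as a block, the counts in J1, TKO and 3B3l were 9, 5 and 5, that for 3B3l-2i against TKO-2i was 2, and those for 3B3l minus J1 and 3B3l minus TKO were 8 and 2.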
